A study of Mus musculus with 6 samples.

Results

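Myocardin, serum response factor and the transcription factors that work with them in heart muscle were followed as a group of 10 genes, out of 23420 genes in the deposited tables. The group was chosen by gene name, and held Myocd, Srf, Mef2a, Mef2c, Mef2d, Gata4, Tbx5, Hand2, Smyd1 and Nkx2-5, each with 1 entry in the table of heart tissue and 1 in the table of adhesion tissue. All 10 had reads in heart at every time point, and 9 of the 10 had reads in every adhesion library. Pericardial adhesions were induced in 8-week-old male C57BL/6 mice with 300 µL of a talc solution (2.5 mg/g), a suspension of an irritant mineral placed around the heart through the diaphragm. Whole heart (days 0, 3 and 7) and adhesion tissue (days 1, 3 and 7) were sequenced as total RNA depleted of ribosomal RNA, with 1 library per condition and 6 libraries in all. For the earliest adhesion sample the title says day 1 and the source label day 0, and day 1 is used here. The labels do not say how many mice gave each library. The libraries let the time course of these regulators be read in the heart and in the adhesions that form around it.

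Srf is a DNA-binding protein of the MADS-box class that recognizes the CArG box, a short run of weakly paired bases flanked by strongly paired ones. Myocardin, the product of Myocd, does not bind DNA by itself but is recruited by Srf and switches on contractile genes in heart and smooth muscle, whereas the related proteins Mkl1 and Mkl2 couple Srf to the actin cytoskeleton in most cell types. Mef2 proteins belong to the same MADS-box class, and Gata4, Tbx5, Hand2 and Nkx2-5 are core factors of heart muscle identity. Smyd1 is a muscle-specific histone methyltransferase needed for sarcomere assembly.

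The libraries held between 1615922 and 1844565 reads in genes. With no replicate of any condition, differences could not be checked against the spread between samples, and p-values across conditions are not given. Ratios between libraries are given with exact 95% intervals of the recovered reads, which cover counting error only, and a library at 0 reads was set to a floor of 3 reads. Counts of genes over 3-fold lower or higher were made with a pseudocount of 1, whereas the folds printed have none. Ratios within a tissue are on the deposited scale unless CPM (reads scaled to the library total) is named, and heart is set beside adhesion tissue in CPM alone, since the 2 tables were scaled separately. Levels of different genes are compared per exon length (RPKM). The 9 heart muscle genes used as a reference below had 85299 to 98288 reads in heart, and the heart libraries thus carried the defining markers of their label. In adhesion tissue, summed reads of 8 fibroblast genes were 11.7-fold higher at day 3 and 18.9-fold higher at day 7 than at day 1, and 7 macrophage and leukocyte genes were 1.7-fold and 1.78-fold higher. In bulk tissue, fewer cells of a type and less RNA per cell cannot be told apart.

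The share of heart muscle carried along with the adhesion tissue was estimated from 9 genes of heart muscle cells, 8 of which were Myh6, Tnni3, Tnnt2, Mybpc3, Ryr2, Corin, Lrrc10 and Tnni3k. The summed CPM of the 9 reached 8.02% (7.84 to 8.2) of the day 0 heart level in adhesion tissue at day 1, 0.317% (0.282 to 0.356) at day 3 and 4.94% (4.8 to 5.08) at day 7. The 8 genes alone summed to 7.76%, 0.317% and 4.92% of it at days 1, 3 and 7. They did not give 1 common share at day 1, where they ranged from 2.47% for Lrrc10 to 13.1% for Corin, a protease that activates natriuretic peptides. At day 7 they lay between 3.19% and 7.57%, and at day 3 between 0%, for Lrrc10 and Tnni3k with 0 reads each, and 0.473%. Another 5 genes, of atrial muscle (Nppa, Myl7, Myl4, Sln and Bmp10), gave other shares, 85.3% at day 1, 0.579% at day 3 and 29.8% at day 7. The shares at days 1 and 7 did not describe the heart muscle genes named above, of which Myh6 stood at 7.49% and 5.03%. Ratios with the atrial share below therefore show how far a result depends on the list, and are not a second estimate of all heart muscle. Markers of skeletal muscle were also present: 11 such genes summed to 11350, 22 and 4031 reads in adhesion tissue at days 1, 3 and 7, against 536, 324 and 449 in heart. Myh1 and Myh4, myosins of fast skeletal muscle, had 3380 and 1331 reads at day 1. Muscle of 3 kinds was therefore highest at day 1, lowest at day 3 and back in part at day 7, and the part of each kind in the values below was not tested.

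Set beside that share, the 10 genes fell into those that kept a large part of their heart level in adhesion tissue and those that did not. Srf, Mef2a, Mef2c and Mef2d held between 43.9% and 104% of their day 0 heart CPM in each of the 3 adhesion libraries. Myocd, Gata4, Hand2, Smyd1 and Nkx2-5 held at most 18.3%, and at day 3 at most 2.21%. Tbx5 was within the range of the first set at day 1, with 73.1%, and lay between the sets at days 3 and 7, with 13.3% and 37.4%.

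**Figure D1:**
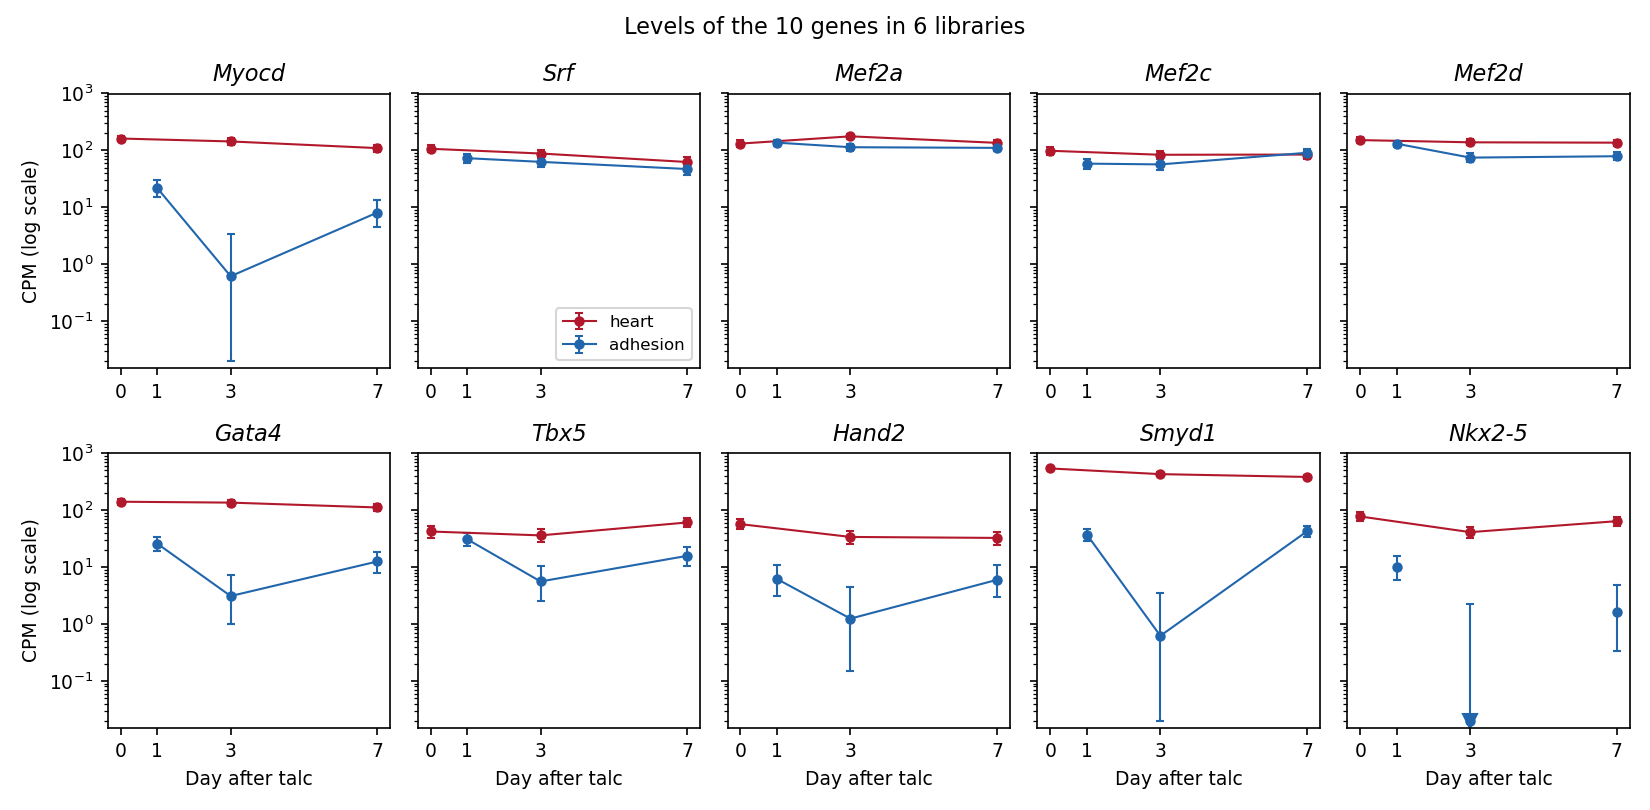
CPM of each of the 10 genes on a logarithmic axis against the day, in 3 heart libraries (red) and 3 adhesion libraries (blue), with exact 95% intervals of the reads and 1 library per point; intervals that reach below 0.02 CPM end there, and the triangle marks 0 reads. Srf and the Mef2 genes lie close together in both tissues, whereas Myocd, Gata4, Hand2, Smyd1 and Nkx2-5 are lower in adhesion tissue throughout and lowest at day 3.

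Myocd (mm10 chromosome 11, 65176571 to 65269989, minus strand, 14 exons) had 278, 261 and 200 reads in heart at days 0, 3 and 7, or 162, 144 and 110 CPM. The adhesion libraries held 39, 1 and 15 reads in order of day, or 21.8, 0.619 and 8.13 CPM. Every heart library was thus above every adhesion library, and the day 3 adhesion library held a single read. Myocd was 34.9-fold lower (5.91 to 1415) in adhesion tissue at day 3 than at day 1, and 13.4-fold higher (2.05 to 562) at day 7 than at day 3. The heart muscle share predicted 23.3, 0.832 and 14.8 reads. Observed over expected was 1.67 (1.17 to 2.35) at day 1, 1.2 (0.0303 to 6.75) at day 3 and 1.02 (0.561 to 1.7) at day 7. The level of Myocd in adhesion tissue was therefore within counting error of the share from the 9 heart muscle genes at days 3 and 7. At day 1 it was above that share, by an interval that holds the share fixed. The named heart muscle genes themselves lay between 0.308 (Lrrc10) and 1.63 (Corin) of the share at day 1, so that Myocd was close to Corin. At day 3, with 0.832 reads expected, the interval reached 6.75 and did not exclude a higher level. With the share taken from the 5 atrial genes the day 1 ratio turned to 0.157 and that at day 7 was 0.168, below its interval. With the share from 10 target genes of these factors in heart muscle the day 1 ratio was 0.779.

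In heart, Myocd was 1.27-fold lower (1.07 to 1.51) at day 3 and 1.6-fold lower (1.33 to 1.93) at day 7 than at day 0, comparisons that share the day 0 library. On the CPM scale the first became 1.13-fold (0.947 to 1.34), with an interval that includes 1, and the second 1.48-fold (1.23 to 1.78). Relative to the summed reads of the 9 heart muscle genes, which were themselves 1.37-fold lower at day 3 and 1.15-fold lower at day 7, Myocd stood at 1.08 (0.906 to 1.28) at day 3 and at 0.716 (0.594 to 0.862) at day 7. Myocd was thus lower than the summed heart muscle genes at day 7 alone. Myh6 gave 65550 of the 97869 reads of that sum at day 0. Corin, the lowest of the 9 by the ratio of day 7 to day 0, went from 673 to 508 reads, a fall near that of Myocd. Among 10257 genes with at least 100 reads, those whose log2 CPM followed Myocd most closely over the 6 libraries were Cox7a1, Slc25a34, Fbxo40, Rcan2 and Mtus2, with root mean square differences of 0.181 to 0.212 on the log2 scale. Cox7a1, a subunit of mitochondrial cytochrome c oxidase in muscle, had 778, 504 and 519 reads over the heart libraries and 90, 4 and 41 in adhesion tissue. Srf was far from this profile, with a difference of 2.21 from Myocd.

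Srf (chromosome 17, 46546839 to 46556162, minus strand, 7 exons) is the DNA-binding partner of myocardin, and its own promoter carries the box it binds. The 250 bases before the start of Srf, taken from the RefSeq annotation of GRCm38.p6 (chr17:46556163-46556412, minus strand), are shown because they hold 2 CArG boxes, here in capitals, whose first bases lie 82 and 62 bases before the start.
Srf promoter: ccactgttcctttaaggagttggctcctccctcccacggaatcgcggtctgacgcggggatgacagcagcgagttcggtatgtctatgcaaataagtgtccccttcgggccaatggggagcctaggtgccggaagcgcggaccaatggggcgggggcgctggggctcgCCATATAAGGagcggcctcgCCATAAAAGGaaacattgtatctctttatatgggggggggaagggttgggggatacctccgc
Windows of 250 bases before to 50 bases after the start were searched on both strands for the CArG box, for the Mef2 site, for the Gata motif (AGATAA), for the T-box motif (AGGTGTGA) and for the Nkx2-5 motif (TNAAGTG). The CArG box was taken strictly as CC, then A or T alone, then GG, 10 bases in all. Boxes that depart from this pattern were not counted. Windows were found for 7 of the 10 genes, 9 windows in all, and there were none for Myocd, Gata4 and Tbx5. A CArG box, whose pattern is the same on both strands so that a box was counted once, stood in 1.63% of 32851 RefSeq windows and, among the members, in that of Srf alone. The other sites found among the members are shown with 30 bases each, the site in capitals, since they are the only letters in these windows that match a motif of another member. They are a Mef2 site (in 3.19% of windows) across the start of Mef2a (chr7:67372841-67372870, minus strand), TTATCT, the reverse complement of the Gata motif (11.2% of windows), before Hand2 (chr8:57320799-57320828, plus strand) and the Nkx2-5 motif (11.5% of windows) before Smyd1 (chr6:71262501-71262530, minus strand).
Mef2a: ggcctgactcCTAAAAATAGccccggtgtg
Hand2: cccccgttttaaTTATCTtatggttatgag
Smyd1: tgggagtatctTTAAGTGggttttcaaatc
The windows of Mef2c, Mef2d and Nkx2-5 held none of the 5 motifs, no member's window held AGGTGTGA (1.28% of windows), and none held 2 kinds of site. A match is a stretch of letters and not a measured binding site.

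Srf had 184, 160 and 114 reads (107, 88.4 and 62.7 CPM) in the heart libraries in order of day, and 131, 102 and 87 (73.2, 63.1 and 47.2 CPM) in the adhesion libraries. The highest adhesion library was above the lowest heart library, and in both tissues the day 7 library was the lowest. In heart Srf was 1.37-fold lower (1.1 to 1.71) at day 3 and 1.86-fold lower (1.47 to 2.37) at day 7 than at day 0. On the CPM scale these were 1.22-fold (0.978 to 1.51) and 1.71-fold (1.35 to 2.18). Relative to the heart muscle genes Srf was at 0.998 (0.802 to 1.24) at day 3 and at 0.617 (0.484 to 0.783) at day 7. In adhesion tissue, the ratio of day 3 to day 1 was 0.869 (0.664 to 1.13), and at day 7 Srf was 1.52-fold lower (1.15 to 2.01) than at day 1. Srf exceeded the level expected from heart muscle 8.5-fold (6.74 to 10.7), 185-fold (144 to 237) and 8.9-fold (6.81 to 11.5) at days 1, 3 and 7. The day 1 ratio turned to 0.798 with the atrial share, and the ratios at days 3 and 7 were 102 and 1.47. Day 3 adhesion tissue therefore held Srf reads at 58.8% of the heart level with Myocd at 0.381% of its own. Narfl, Nrbp2 and Ppapdc2 were among the 5 genes nearest to Srf in profile, with differences of 0.11 to 0.115.

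Other partners of Srf were read from a list of 11 cofactors and antagonists. With the pseudocount, 0 were over 3-fold lower or higher in adhesion tissue at day 3 than at day 1, and without it Fhl2 passed the threshold. The median log2 ratio was 0.23, where the median of all genes with a read was -0.10. Mkl1, the myocardin relative that senses actin and which was picked out after its values were seen, had 37, 63 and 65 reads over the heart libraries and 110, 140 and 168 in adhesion tissue, where it was 1.42-fold (1.1 to 1.84) and 1.52-fold higher (1.19 to 1.95) at days 3 and 7 than at day 1. Mkl2, also picked afterwards, had 153, 179 and 181 reads over the heart libraries and 155, 157 and 222 in adhesion tissue. Both thus had more reads in each adhesion library than Myocd had in any of them, and neither shared its minimum at day 3. Csrp2, a LIM protein of smooth muscle, was 2.79-fold higher (1.71 to 4.69) at day 3 than at day 1. Fhl2, a LIM protein abundant in heart muscle, had 2002, 1894 and 1654 reads over the heart libraries and 45, 13 and 69 in adhesion tissue, 3.1-fold lower (1.64 to 6.27) at day 3 than at day 1, and was below the heart muscle share at day 1, at 0.268 (0.195 to 0.36) of the expected level.

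Known targets of Srf differed by class in adhesion tissue. Of 8 cytoskeletal targets 0 were over 3-fold higher or lower at day 3 than at day 1, and the list summed to 551%, 640% and 492% of its day 0 heart level at days 1, 3 and 7. The 7 immediate early targets summed to 537%, 507% and 377%, and of these Fos alone passed 3-fold at day 3, 3.27-fold higher (2.62 to 4.13) than at day 1. Of 10 cardiac targets of the factors studied, 8 were over 3-fold lower at day 3 than at day 1, with a median log2 ratio of -5.17. At day 7, 7 of them were over 3-fold higher than at day 3. Over all genes with a read, 6.7% were over 3-fold lower and 3.78% higher at day 3 against day 1. At day 7 against day 3, 4.88% were higher. Ankrd1, a cardiac stress gene, had 2444, 20 and 145 adhesion reads, and Ckm, the creatine kinase of heart and skeletal muscle, 856, 1 and 214. Of 14 smooth muscle contractile genes 5 were over 3-fold lower and 1 higher at day 3, with a median of -0.22. The named ones that were lower, Des (14-fold), Tpm2 (8.25-fold), Tpm1 (7.04-fold) and Itga7 (5.71-fold), are also expressed in heart or skeletal muscle. Of the others, named after their values were seen, Lmod1 had 19 and 4 reads at days 1 and 3 and was lower, and Actg2 had 1 and 6 and was higher. Acta2, Tagln and Myh11, looked up after the values were seen, had 174, 249 and 297, then 106, 85 and 102, then 65, 60 and 88 reads at days 1, 3 and 7. Acta2, Tagln and Myh11 thus had no minimum of the kind that Myocd had, the ratio of day 3 to day 1 being 1.6 (1.31 to 1.95) for Acta2, 0.895 (0.665 to 1.2) for Tagln and 1.03 (0.713 to 1.49) for Myh11. That does not hold for the whole list. Synpo2, also looked up afterwards, had 94, 34 and 113 reads and Lmod1 19, 4 and 7, both lowest at day 3.

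CArG boxes of the strict pattern stood in the windows of 2 of 7 cytoskeletal targets with a window, 1 of 8 cardiac targets, 1 of 4 immediate early targets, 1 of 4 atrial genes and 0 of 10 smooth muscle genes. Of the Srf cofactors and antagonists 2 of 7 held a box, and of the heart muscle reference genes 0 of 8. Since other forms of the box were not searched, a count of 0 does not mean that Srf has no site there. The boxes of Egr2, Fhl2 and Hopx are not shown. A stretch of 30 bases around the box, in capitals, are shown for Actg1 (chr11:120348566-120348595, minus strand), Vcl (chr14:20929161-20929190, plus strand), Actc1 (chr2:114052903-114052932, minus strand) and Myl7 (chr11:5898824-5898853, minus strand), because boxes of the same class preceded genes with opposite patterns in adhesion tissue.
Actg1: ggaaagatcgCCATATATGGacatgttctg
Vcl: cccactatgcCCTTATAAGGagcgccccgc
Actc1: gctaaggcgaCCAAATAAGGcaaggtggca
Myl7: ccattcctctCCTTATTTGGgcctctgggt
Actg1 (cytoplasmic gamma actin) and Vcl (vinculin) were 1.4-fold (1.33 to 1.46) and 1.33-fold higher (1.14 to 1.54) at day 3 than at day 1. Actc1 (cardiac actin) and Myl7 (atrial myosin light chain) were 24.6-fold and 86.9-fold lower.

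The Mef2 genes were the most even of the group. Mef2a (chromosome 7, 67233827 to 67372858, minus strand, 12 exons) had 226, 321 and 248 reads over the heart libraries and 245, 184 and 204 in adhesion tissue. It had the highest adhesion level relative to heart of the 10 genes at days 1 and 3, at 104% (86.2 to 125) and 86.3% (70.7 to 105) of day 0 heart CPM, and was second to Mef2c at day 7 with 83.8% (69 to 102). In heart at day 3 Mef2a was the one member above day 0, 1.19-fold (1 to 1.42, the lower bound just above 1) on the deposited scale and 1.34-fold (1.13 to 1.6) on the CPM scale. Relative to the heart muscle genes it was 1.63-fold higher (1.37 to 1.94) at day 3, and its ratio at day 7 was 1.09 (0.909 to 1.31). The ratio of day 3 to day 1 in adhesion tissue was 0.838 (0.689 to 1.02).

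Mef2c (chromosome 13, 83504034 to 83667079, plus strand, 12 exons), which is also used by endothelial and myeloid cells, had 169, 152 and 154 reads over the heart libraries and 105, 92 and 168 in adhesion tissue. The day 7 adhesion library stood out, 1.59-fold (1.24 to 2.05) above day 1 and 1.63-fold (1.25 to 2.12) above day 3. No other member was higher at day 7 than at day 1 with an interval above 1. For comparison, 6 endothelial genes summed to 717, 757 and 964 reads in the same adhesion libraries, 1.34-fold (1.21 to 1.47) more at day 7 than at day 1, and 7 macrophage and leukocyte genes to 7079, 10796 and 12656, and their part in the Mef2c level was not tested. Mef2c was at 92.3% (74.1 to 115) of its day 0 heart CPM in adhesion tissue at day 7.

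Mef2d (chromosome 3, 88142395 to 88169167, plus strand, 11 exons) had 261, 252 and 249 reads in heart and 235, 121 and 146 in adhesion tissue. Its range of reads in heart was the narrowest of the group. On the deposited scale its heart ratios to day 0 were 0.809 (0.678 to 0.966) at day 3 and 0.827 (0.692 to 0.987) at day 7. On the CPM scale they were 0.914 (0.765 to 1.09) and 0.899 (0.753 to 1.07). In adhesion tissue Mef2d was 1.74-fold lower (1.39 to 2.18) at day 3 and 1.62-fold lower (1.31 to 2.01) at day 7 than at day 1. It was the one Mef2 gene with an interval below 1 at day 3 in that tissue. The 3 Mef2 genes exceeded the level expected from heart muscle between 7.42-fold and 18.7-fold at days 1 and 7 and between 155-fold and 272-fold at day 3. The ratio of Mef2c at day 1 turned to 0.697 with the atrial share, those of Mef2d and Mef2a were 1.01 and 1.22, and the 3 lay between 1.74 and 3.1 at day 7 and between 84.9 and 149 at day 3. Of 8 other Mef2 family members and regulators, 0 were over 3-fold lower or higher in adhesion tissue at day 3, with a median log2 ratio of -0.02. Hdac9, a class II deacetylase that represses Mef2 proteins, was 2.76-fold higher (1.54 to 5.17) than at day 1, from 17 to 42 reads, and Hdac4 of the same class had 109, 76 and 68 reads at days 1, 3 and 7.

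**Figure D2:**
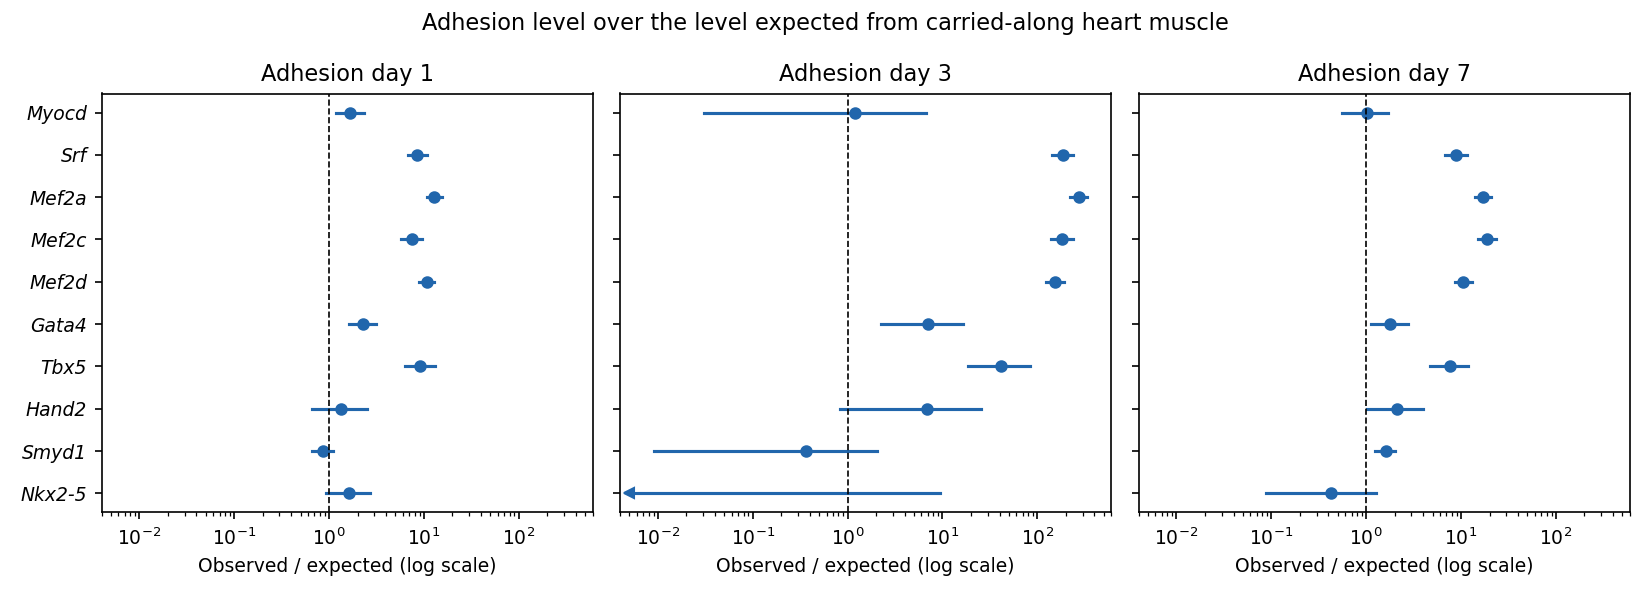
Observed adhesion CPM divided by the CPM expected from the carried-along share of heart muscle for each of the 10 genes, on a logarithmic axis in 3 panels for days 1, 3 and 7; lines are exact 95% intervals of the gene's reads with the share held fixed, lines and points below 0.005 are drawn at 0.005, and the triangle marks 0 reads. With the share from the 9 heart muscle genes drawn here, Srf, the Mef2 genes, Gata4 and Tbx5 lie with their whole intervals to the right of the dashed line at 1 on every day, and Nkx2-5 crosses it on every day.

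The core factors of heart muscle had the day 3 minimum of Myocd in different degrees. Gata4 (chromosome 14, 63198915 to 63245260, minus strand, 7 exons), a zinc finger factor also found in the epicardium and in some mesothelia, had 240, 245 and 201 reads over the heart libraries and 46, 5 and 23 in adhesion tissue. Each adhesion library was below each heart library. Gata4 was 8.24-fold lower (3.29 to 26.6) at day 3 than at day 1 and 4.1-fold higher (1.52 to 13.8) at day 7 than at day 3. Its level was above the share from the 9 heart muscle genes on all 3 days, 2.29-fold (1.63 to 3.15), 6.96-fold (2.24 to 16.5) and 1.8-fold (1.12 to 2.77), unlike that of Myocd at days 3 and 7, although that difference was not tested. With the atrial share the Gata4 ratio turned to 0.215 at day 1 and 0.299 at day 7 and was 3.82 at day 3, and with the share of the 10 cardiac target genes it was 1.06, 1.13 and 1.23 at days 1, 3 and 7. In the same libraries 6 mesothelial and epicardial genes had 124, 149 and 108 reads in adhesion tissue and 63, 15 and 35 in heart, and their part in the Gata4 level was not tested. In heart, Gata4 was 1.38-fold lower (1.14 to 1.67) at day 7 than at day 0, and its interval relative to the heart muscle genes included 1 at both days.

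Tbx5 (chromosome 5, 119834663 to 119885218, plus strand, 9 exons), a T-box factor that is stronger in the atria than in the ventricles, had 72, 65 and 110 reads over the heart libraries and 55, 9 and 29 in adhesion tissue. It was 5.47-fold lower (2.68 to 12.6) in adhesion tissue at day 3 than at day 1, and 2.87-fold higher (1.32 to 6.89) at day 7 than at day 3. Observed over expected was 9.12 (6.3 to 13.1), 41.8 (18.4 to 83.8) and 7.58 (4.75 to 11.8), nearer to those of Srf and the Mef2 genes at days 1 and 7 than to those of the other core factors. Against the share of the 5 atrial genes, however, the day 1 ratio turned to 0.857, and that at day 7 was 1.26. With the 10 cardiac target genes the day 1 and day 3 ratios were 4.24 and 6.78. In heart, Tbx5 alone was higher at day 7 than the heart muscle genes, at 1.52 (1.12 to 2.08) of day 0. On the deposited scale its ratio of day 7 to day 0 was 1.32 (0.975 to 1.81) and on the CPM scale 1.44 (1.06 to 1.97). The 5 atrial genes had 2382, 1226 and 2690 reads in heart at days 0, 3 and 7, 2.32-fold lower at day 3 and at a ratio of 0.979 (0.926 to 1.03) at day 7, and their part in the Tbx5 level was not tested.

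Hand2 (chromosome 8, 57320983 to 57324517, plus strand, 2 exons), a basic helix-loop-helix factor also expressed by cardiac fibroblasts and neural crest derivatives, had 97, 61 and 59 reads over the heart libraries and 11, 2 and 11 in adhesion tissue. In heart it was 1.9-fold lower at both day 3 (1.36 to 2.66) and day 7 (1.36 to 2.67) than at day 0. In adhesion tissue it was 4.93-fold lower (1.08 to 45.7) at day 3 than at day 1 and 4.9-fold higher (1.07 to 45.5) at day 7 than at day 3, and the ratio of day 7 to day 1 was 0.994 (0.391 to 2.53). The few reads left observed over expected at 1.35 (0.654 to 2.53), 6.89 (0.822 to 25.6) and 2.13 (1.03 to 3.99), so that an excess of Hand2 over heart muscle was not detectable at this depth at days 1 and 3. The day 7 ratio turned to 0.354 with the atrial share.

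Nkx2-5 (chromosome 17, 26838665 to 26841565, minus strand, 2 exons), a homeodomain factor of heart muscle, had 132, 74 and 116 reads over the heart libraries and 18, 0 and 3 in adhesion tissue. With 0 reads at day 3, the floor of 3 reads in that library allowed up to 1.86 CPM, and against this floor Nkx2-5 was at least 5.38-fold lower than at day 1. The exact interval, which also carries the counting error of the 18 reads at day 1, reached down to 3.94-fold lower. It was 6.04-fold lower (1.76 to 32) at day 7 than at day 1, the one member over 3-fold lower at that time. Its level was within counting error of the share from the 9 heart muscle genes on each day, with 1.63 (0.936 to 2.67) at day 1, an upper bound of 9.47 from the exact interval at day 3 and 0.428 (0.0871 to 1.28) at day 7. With the atrial share the ratios at days 1 and 7 were 0.153 and 0.0709, below these intervals, and with the 10 cardiac target genes that at day 1 was 0.757. In heart, Nkx2-5 was 2.13-fold lower (1.59 to 2.87) at day 3 than at day 0 and 1.62-fold higher (1.2 to 2.2) at day 7 than at day 3. It was the one member below the summed reads of the 9 heart muscle genes at day 3, at 0.643 (0.477 to 0.861). Lrrc10, the lowest of the 9 by the ratio of day 3 to day 0, went from 349 to 192 reads, a fall of similar size. Nkx2-5 was thus not below each of the 9.

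Smyd1 (chromosome 6, 71213940 to 71262281, minus strand, 10 exons) had the most reads of the group in heart, 920, 773 and 692, and 66, 1 and 78 in adhesion tissue. It was 59.1-fold lower (10.2 to 2370) at day 3 than at day 1 and 69.4-fold higher (12.1 to 2778) at day 7 than at day 3, and the ratio of day 7 to day 1 was 1.17 (0.835 to 1.66). The heart muscle share predicted 77.1, 2.75 and 48.9 reads, so that Smyd1 was at 0.856 (0.657 to 1.1) and 0.363 (0.00918 to 2.03) of the expected level at days 1 and 3 and at 1.6 (1.25 to 2.01) at day 7. With the atrial share the day 7 ratio turned to 0.264 and that at day 1 was 0.0805, and with the 10 cardiac target genes they were 1.09 and 0.399. Skeletal muscle also expresses Smyd1, and the 11 skeletal muscle genes had 11350 reads at day 1 and 4031 at day 7. In heart, Smyd1 was 1.42-fold lower (1.29 to 1.56) at day 3 and 1.53-fold lower (1.39 to 1.7) at day 7, and relative to the heart muscle genes it stood at 0.964 (0.875 to 1.06) and 0.749 (0.678 to 0.828). Its relatives Smyd2 and Smyd5 had 61, 34 and 55, and 65, 42 and 46, adhesion reads, with no minimum near 0. Naca, whose muscle isoform partners Smyd1 and whose other isoform is made by all cells, was 2.71-fold lower (2.37 to 3.11) at day 3 than at day 1.

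**Figure D3:**
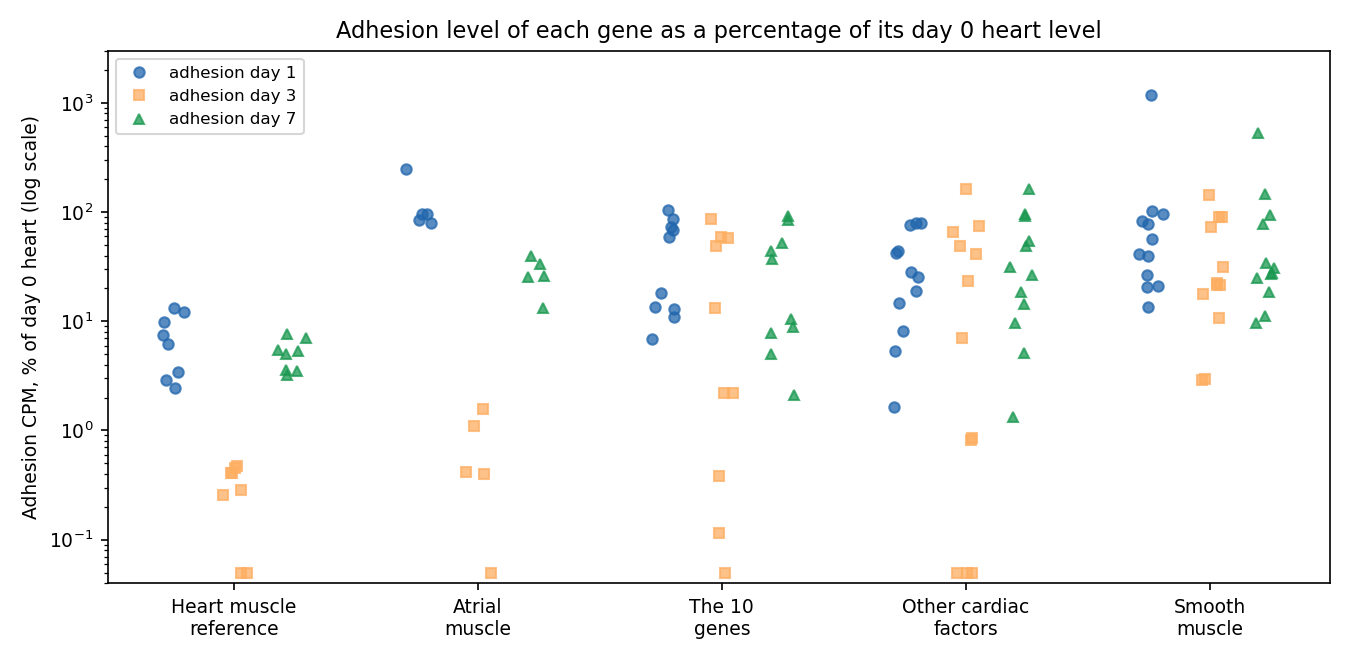
Adhesion CPM as a percentage of day 0 heart CPM, on a logarithmic axis, for the genes of 5 lists with at least 10 reads in day 0 heart (8 of the 9 heart muscle reference genes), by adhesion day; genes at 0 reads are drawn at 0.05%, and points are spread sideways for legibility. At day 3 the heart muscle reference genes shown are at or below 0.473%, and the 10 genes lie between 0% and 86.3%.

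Counted over the group, 6 of 10 members were over 3-fold lower in adhesion tissue at day 3 than at day 1 (Myocd, Gata4, Tbx5, Hand2, Smyd1 and Nkx2-5) and 0 were higher, where 6.7% of 16946 genes with a read were lower and 3.78% higher. The median log2 ratio was -2.09 in the group and -4.49 over the 9 heart muscle genes. From day 1 to day 7, 1 member was over 3-fold lower (background 4.88%) and 0 were higher (5.13%). From day 3 to day 7, 5 members (Myocd, Gata4, Hand2, Smyd1 and Nkx2-5) were over 3-fold higher (4.88%) and 0 lower (1.82%). Nkx2-5 is among the 5 by the pseudocount, with 3 reads against 0, and its interval included 1. These comparisons share libraries and are not independent of each other. Intervals that excluded 1 were found for 7 members below and 0 above at day 3 against day 1 (16.6% and 12.5% of genes). At day 7 against day 1 they were found for 6 below and 1 above (17.8% and 13.9%). At day 7 against day 3 they were found for 0 below and 6 above (8.78% and 11.1%). These shares, and those of the binomial test that follows, are of all genes with a read. Genes with very few reads cannot pass, which lowers the shares, and in heart at least 100 reads were asked for. By an exact binomial test of the 2 libraries with Benjamini-Hochberg adjustment, which compares libraries and not conditions, 6 members were lower at day 3 than at day 1 (12.3% of genes), with Mef2d in place of Hand2, and 5 were higher at day 7 than at day 3 (6.99%), with Mef2c and Tbx5 in place of Hand2 and Nkx2-5. The summed reads of the group were 951, 517 and 764.

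Against the level expected from heart muscle, 7, 6 and 8 members were above it at days 1, 3 and 7 and 0 were below it, by the share from the 9 heart muscle genes. With the atrial share 1, 6 and 4 were above it, and with the 10 cardiac target genes 5 on each day. Most genes of any kind are above such a level, 96.8%, 97% and 97.3% of 7241 genes with at least 30 reads in day 0 heart, and by the 9 genes 3, 4 and 2 members were not. Smyd1 and Hand2 were among them at days 1 and 3, Myocd at days 3 and 7, and Nkx2-5 on all 3 days. Among 15 other cardiac transcription factors, of which 14 had a read, 3 were over 3-fold lower at day 3 and 0 higher, with a median log2 ratio of -0.92. Tbx20, a T-box factor of heart muscle, had 372, 413 and 302 reads over the heart libraries and 73, 3 and 39 in adhesion tissue, 21.8-fold lower (7.17 to 108) at day 3 than at day 1. Prox1, also expressed by lymphatic endothelium, had 20, 1 and 37 adhesion reads, and Irx4, a ventricular homeobox factor named after its values were seen, had 6, 0 and 1. Gata6, a relative of Gata4 found in many mesenchymal cells, went the other way, 1.74-fold higher (1.2 to 2.56) at day 3, and its adhesion reads of 48, 75 and 95 were above the heart muscle share on each day. Tead1, which binds the muscle CAT motif in many tissues, had 319, 160 and 246.

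In heart no member was over 3-fold lower or higher in any of the 3 comparisons. The backgrounds were 1.77% lower and 6.66% higher at day 3 against day 0, 1.52% and 6.84% at day 7 against day 0, and 2.37% and 2.93% at day 7 against day 3. Smaller shifts were read from the intervals, beside 5729, 5689 and 6013 genes with at least 100 reads over both libraries. At day 3, 7 members were below day 0 (26.1% of genes) and 1 above (11.8%), and on the CPM scale 3 were below (14.2%), Hand2, Smyd1 and Nkx2-5. At day 7, 8 members were below (23.6%) and 0 above (11%), and on the CPM scale 5 were below (14.9%), Myocd, Srf, Gata4, Hand2 and Smyd1. At day 7 against day 3, Myocd, Srf and Mef2a were below (6.95%) and Tbx5 and Nkx2-5 above (11.2%).

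Relative to the 9 heart muscle genes, 1 member was below (3.86% of genes) and 1 above (47.1%) at day 3, and at day 7 Myocd, Srf, Hand2 and Smyd1 were below (10.2%) and Tbx5 above (22.8%). At day 3 the intervals of 8 members included 1, which does not show that these members moved with the heart muscle genes. The 9 genes differed among themselves from day 0 to day 3, from Lrrc10 (349 to 192 reads) to Ryr2 (9180 to 9005). At day 7, 4 members were under the summed heart muscle genes. Summed reads of 8 fibroblast genes were 6.76-fold higher in heart at day 3 and 7.48-fold higher at day 7 than at day 0, and those of 7 macrophage and leukocyte genes 4.09-fold and 5.27-fold higher, and their part in the member ratios was not tested.

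**Figure D4:**
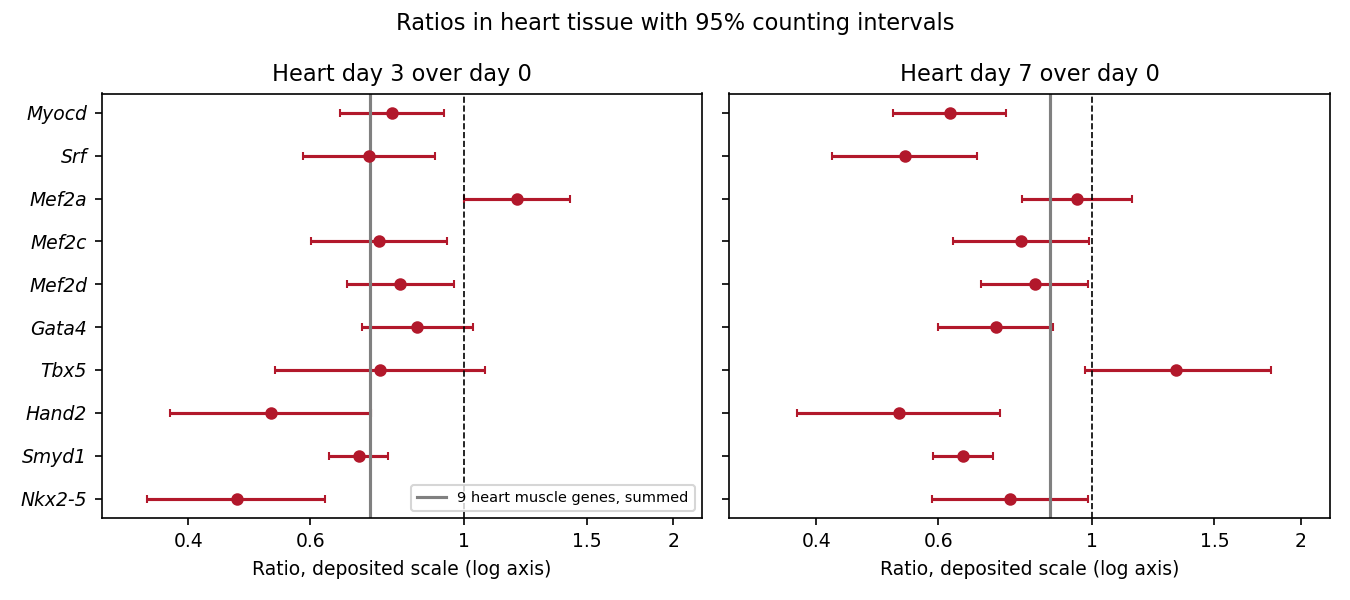
Ratio of heart day 3 (left) and day 7 (right) to day 0 for each of the 10 genes on the deposited scale, on a logarithmic axis with exact 95% counting intervals; the dashed line marks 1 and the grey line the summed ratio of the 9 heart muscle genes, 0.731 at day 3 and 0.87 at day 7. At day 3 Mef2a lies to the right of the grey line and Nkx2-5 to the left, and at day 7 Myocd, Srf, Hand2 and Smyd1 lie to the left and Tbx5 to the right.

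Per exon length the order of the members changed between the tissues. In day 0 heart Smyd1 led with 160 RPKM, followed by Mef2d (62), Nkx2-5 (50.6), Mef2a (45.9) and Gata4 (41.3), then Myocd (31.7), Srf (26.2), Hand2 (25.3), Mef2c (15) and Tbx5 (10.7). The levels of Mef2d and Nkx2-5, of Nkx2-5 and Mef2a, of Mef2a and Gata4, of Myocd and Srf and of Srf and Hand2 did not differ beyond counting error. In day 3 adhesion tissue Mef2a led with 39.6 RPKM, followed by Mef2d (30.5), Srf (15.4) and Mef2c (8.67), each above the next beyond counting error. Tbx5 (1.41), Gata4 (0.912), Hand2 (0.554), Smyd1 (0.184), Myocd (0.121) and Nkx2-5 (0) followed and were not separated from their neighbours. Smyd1 thus went from the first place in heart to the eighth in day 3 adhesion tissue and was back between Mef2c and Srf at day 7, with 12.6 RPKM.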

How the data were processed

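Total RNA of 3 heart and 3 adhesion libraries was depleted of ribosomal RNA, prepared with a directional kit and read on a MiSeq. The labels name mm10, TopHat, Cufflinks and edgeR, but the sources used here give neither versions nor the counting tool and its strand setting. The signal that the authors deposited is a read count per gene times 1 factor per library, scaled within each tissue. In all, 100% of values were whole multiples to within 0.1 read, and reads were recovered. The deposited score, the deposited q-value and any other columns of the authors' own comparison were not used. The deposited exon length, an annotation value, served for RPKM only. No member shares exon bases with another gene.

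Ratios carry exact 95% conditional binomial intervals without pseudocount (Python 3.11.15, scipy 1.17.1). Members over 3-fold were counted with a pseudocount of 1 and no filter. The share of heart muscle in an adhesion library was the summed CPM of 9 genes over that in day 0 heart, and a member's expected level was this share of its day 0 heart CPM, with intervals that hold the share fixed. The procedure was tested on simulated data with counting error only, in which all heart muscle genes had 1 common share. Such data cannot test the estimate where these genes differ, as they did at day 1. With 1 library per condition no test across replicates was possible. The members and lists were chosen with earlier results of these data known, and the text names all members, up to 4 genes per list with the largest change from adhesion day 1 to day 3 by the bound nearest to 1 (at least 20 reads), and the 5 nearest profiles of Myocd and of Srf. Of these, 1 heart muscle gene and 2 genes near Srf are not reported here. Alternatives were pseudocounts, thresholds, a filter of 10 reads, CPM, edgeR 4.0.16 TMM, DESeq2 1.42.0 size factors, totals without Rn45s, and other heart muscle lists.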

Additional observations from a re-analysis of the deposited data

Results flagged for a closer look

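Myocd had opposite ratios of day 7 to day 3 in the 2 tissues, with intervals on opposite sides of 1. In heart the ratio was 0.792 (0.656 to 0.956), from 261 to 200 reads, and in adhesion tissue 13.4 (2.05 to 562), from 1 to 15 reads. The difference between the tissues was not tested, since each value rests on 1 library per day. The summed reads of the 9 heart muscle genes were 1.19-fold higher in heart and 15.8-fold higher in adhesion tissue over the same days.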

How the results depend on the processing

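Of 140 alternative values of the counts of members, 124 stayed within 1.5 times the main count and 16 did not, and of 300 alternative values of single members 250 stayed within the counting interval, 41 left it on the same side of 1 or without a call, and 9 turned to the other side. Values and counts of observed over expected could not move under TMM or totals without Rn45s, because the library scale cancels. Those alternatives stayed the same by construction and are no sign of stability. Without a fold threshold, by intervals that exclude 1, the counts lower were 7 and 8 in heart at days 3 and 7 against day 0, 3 at day 7 against day 3, and 6 in adhesion tissue at day 7 against day 1, and the counts higher were 1, 2 and 1 in heart day 3 against day 0, heart day 7 against day 3 and adhesion day 7 against day 1. A 2-fold threshold gave 1 member lower in heart at day 3 and 2 in adhesion tissue at day 7 against day 1. A pseudocount of 5 gave 0 lower in adhesion tissue at day 7 against day 1 and 2 higher at day 7 against day 3. The counts of 6 members lower at day 3 and 5 higher at day 7 depend on libraries with few reads. With the share of the 5 atrial genes, 1 and 4 members were above the expected level at days 1 and 7, and with the cardiac target genes 5 at day 7. Relative to the heart muscle genes at day 3, 2 members were below without Myh6 and 3 with the cardiac target genes. With the atrial share, observed over expected at day 1 fell to 0.157 for Myocd, 0.798 for Srf, 0.697 for Mef2c, 0.215 for Gata4 and 0.857 for Tbx5, and at day 7 to 0.299 for Gata4, 0.354 for Hand2 and 0.264 for Smyd1. With the cardiac target genes, Myocd at day 1 was at 0.779. The cause was not tested. The exact binomial test and the share from the 8 named heart muscle genes were chosen after seeing the data. No paired analysis was possible because each condition has 1 library, and for the same reason no replicate could be left out. The depth limits values under about 10 reads, and with 1 library per condition differences between mice cannot be told apart from those between days.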
